A study of Bos grunniens with 36 samples.

Results

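Day +60 of lactation was compared with day +30 in the mammary gland of 4 female yaks (Bos grunniens). The comparison used 8 of the 36 arrays of the series, 4 at each day, chosen by the day in the sample title and paired by yak number. Changes come from these 8, while p-values and SE rest on a fit over all 36 arrays with yak as a random block. All animals were followed from 30 days before calving to 240 days after it, at 9 days in all, and the labels name no treatment. Age is not given in the sources used here. Each array held the RNA of 1 biopsy of about 1 g of udder tissue, taken in turn from the left and the right rear gland after fat and connective tissue had been cut away. The side is not recorded array by array, so that side and day could not be separated. The arrays are a cattle design carrying probes of 60 bases and were used here on yak RNA, and with 4 arrays a day the precision is limited. Levels are log2 values scaled so that the 75th percentile of an array is 0, and a change is the level at day +60 minus that at day +30. In tissue of this kind, fewer cells of a type and less RNA per cell cannot be told apart.

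In the lactating gland, secretory epithelial cells make caseins, whey proteins, lactose and fat, and myoepithelial cells around them squeeze the milk out. Output in dairy ruminants climbs after calving to a peak and then declines. Epithelial cells multiply mostly in pregnancy and early lactation, and the number of secretory cells and the activity of each set the yield together. The defining genes of this tissue were bright at both days. CSN1S1 and CSN3, which encode caseins, had mean levels of 6.52 and 6.86 at day +30 and of 8.29 and 8.41 at day +60. The 12 epithelial keratins and partners had a median change of 0.17, and the 13 myoepithelial genes one of 0.37.

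The probes of 4 genes on which the results turn are printed here 5′ to 3′ with G and C in capitals, since the share of genes called went with the GC content of the probe. They come from the array files, with positions on the cattle assembly UMD 3.1. CSN1S1 (alpha-S1-casein) stands for the bright genes. GINS2 (a subunit of the replicative helicase) and SH3TC2 (a Schwann cell adaptor protein) stand for genes that fell and were measured above background on all 8 arrays. SLC29A4 (a membrane transporter of monoamines) had the smallest p-value of all genes.
CSN1S1, chr6:87150932-87152524, plus strand: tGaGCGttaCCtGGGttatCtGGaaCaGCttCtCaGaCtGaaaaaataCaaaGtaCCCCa
GINS2, chr18:11690355-11690414, minus strand: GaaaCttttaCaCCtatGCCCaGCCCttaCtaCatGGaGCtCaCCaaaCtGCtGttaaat
SH3TC2, chr7:62398163-62398222, minus strand: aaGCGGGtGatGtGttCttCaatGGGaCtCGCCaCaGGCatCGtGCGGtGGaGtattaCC
SLC29A4, chr25:39516880-39516939, minus strand: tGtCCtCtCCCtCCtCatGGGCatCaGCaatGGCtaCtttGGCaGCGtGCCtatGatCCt
GC content was 43.3% in the probes of CSN1S1 and GINS2 and 55% in those of SH3TC2 and SLC29A4. The probe of CSN1S1 covers a span of the genome longer than itself.

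The arrays of the 2 days differed as wholes. In the deposited files, each table column equals 1 scanner file, and the day under which that file is deposited differs from the day of the column for 27 of 36 columns, including 3 of the 4 columns of day +60 and 3 of the 4 of day +30. Values here follow the table's labels. A fit by the days of the scanner files, which also takes their yak numbers, therefore compares other columns. Its day +30 holds 3 columns labelled day +60 and 1 labelled day +30. Its day +60 holds 1 column labelled day +60, and the rest are labelled day +120. By the table's labels all 4 arrays of day +30 lay on 1 slide and all 4 of day +60 on another, so that slide and day cannot be told apart. Spots well above background made up 77.0% to 85.1% of each array at day +30 and 69.6% to 75.3% at day +60, with no overlap and lower in 4 of 4 yaks (exact sign-flip permutation test over the 4 pairs, two-sided, p = 0.125, the smallest that 16 sign flips allow, so that the design cannot pass 0.05). The interquartile range of the values was 4.02 ± 0.122 (SD, n = 4) at day +30 and 4.34 ± 0.0479 at day +60, also with no overlap (exact sign-flip permutation p = 0.125). The 75th percentile of the signal was 2172, 4447, 5698 and 1402 intensity units in yaks 1 to 4 at day +30, and 2512, 1339, 1278 and 1448 at day +60. Yaks 2 and 3 were thus brighter at day +30 than at day +60, whereas those of yaks 1 and 4 differed less and the other way.

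**Figure D1:**
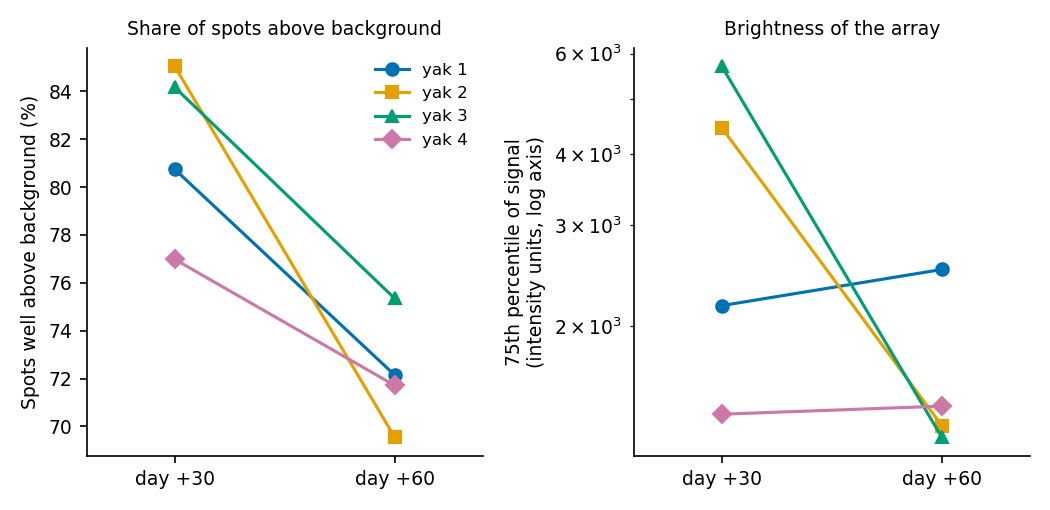
Left, percent of spots well above background on each array; right, the 75th percentile of the signal in intensity units on a log axis, both for day +30 and day +60 with 1 line per yak. The share of spots above background was lower at day +60 in all 4 yaks, while brightness dropped in yaks 2 and 3.

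Across all 20108 genes or unnamed transcripts, 177 passed the test, and all 177 were lower at day +60 (limma, Benjamini-Hochberg adjusted p under 0.05). The background rate is therefore 0.88% lower and 0.0% higher. No gene was called higher, although 1403 were higher at an unadjusted p under 0.05, beside 1916 that were lower, and the smallest adjusted p among the higher ones was 0.0595 (limma). An ordinary linear model called 1 gene higher and 196 lower. The 177 genes were lower in 4 of 4 yaks, and in 165 the values of the days did not overlap. Over all genes 14.1% were lower in 4 of 4 yaks and 5.2% had no overlap in that direction. The count depended strongly on single animals and on scaling. It was 24, 6 and 13 without yak 1, 2 or 3, and 528 without yak 4, of which 169 were higher. It was 1 after quantile normalization, 0 after normexp background correction of the scanner files, 0 when only the 8 arrays entered a paired fit, 0 by the days of the scanner files, 838 with array brightness in the model, 379 (49 of them higher) without 2 other arrays low in milk mRNA, and 96 without the array of yak 3 at day +30. That last array was the lowest of the 8 in milk protein mRNA, and leaving it out was chosen after the values were seen.

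The genes that fell were mostly dim. Their median level was -4.23 at day +30, against -1.23 for all genes, and their median change was -1.09. At day +60, 60 of the 177 were well above background on 0 arrays and 62 on all 4, whereas 161 were above it on all 4 arrays at day +30. For the 60, only a bound on the fold can be given, and 43 had a bound over 1, with a median of 1.36-fold. The change followed the level over all genes. With the genes cut into 10 bins of equal size by level, the median change was -0.50 in the dimmest bin, 0.003 in bin 7 and 0.46 in the brightest. The dimmest bin held 68 called genes (3.38%) and the 3 brightest bins held 0. In the brightest bin the median change was 0.10, 0.75, 0.91 and 0.12 in yaks 1 to 4, and in the dimmest -0.71, -0.53, -0.30 and -0.50.

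GC content of the probe went with the calls as well. The called genes had a median of 55% and all genes one of 43.3%. Of probes with at most 40% GC, 0.194% were called, compared with 0.61% above 40 and up to 50%, 2.57% above 50 and up to 60%, and 4.44% above 60%. Within the 3 dimmest bins these shares were 0.68%, 1.56%, 5.91% and 14.3%. The part of level, GC content and slide in the calls was not tested.

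**Figure D2:**
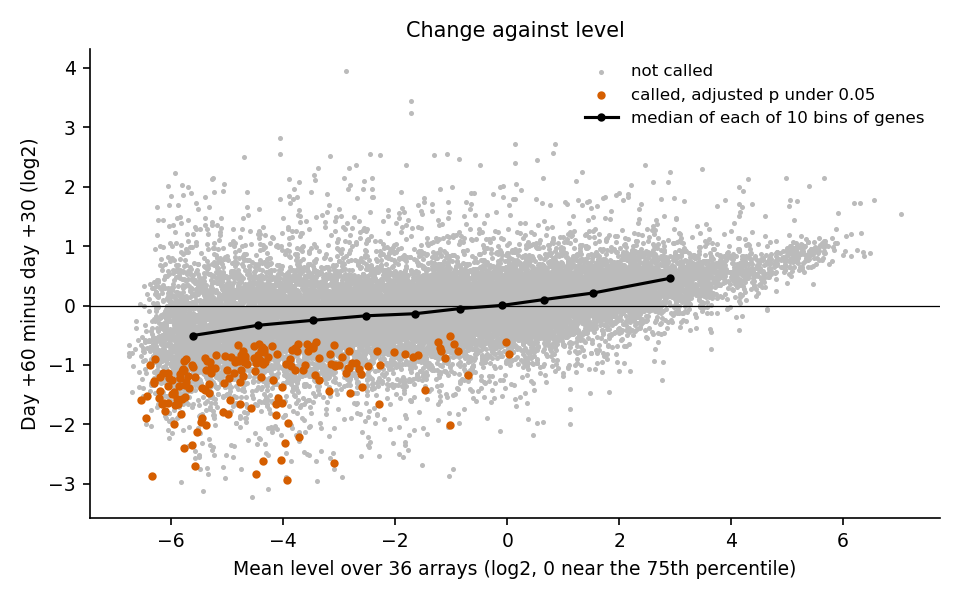
Each point is 1 gene or transcript, with its mean log2 level over the 36 arrays on the x axis and its log2 change from day +30 to day +60 on the y axis. The 177 called genes (orange) all lie below 0 and mostly at low levels, and the black line of medians rises from -0.50 in the dimmest of 10 bins to 0.46 in the brightest.

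Of the 12 genes with a symbol and the largest falls, 11 are described here. GINS2 had levels of 0.27, -1.37, -0.97 and -0.96 in yaks 1 to 4 at day +30 and of -2.38, -3.41, -2.44 and -2.86 at day +60. Every value of day +60 lay below every value of day +30. GINS2 fell by 2.01 ± 0.47 (SE; limma adjusted p = 0.0259), with an adjusted p of 0.0641 without the array of yak 3 at day +30. CENPH, a protein of the inner kinetochore, had levels of -3.21, -2.84, -2.93 and -4.23 at day +30 and of -5.43, -6.02, -5.76 and -5.23 at day +60. The groups did not overlap, and the smallest difference was that of yak 4. The change of CENPH was -2.31 ± 0.56 (limma adjusted p = 0.037).

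SPC25, a subunit of the NDC80 kinetochore complex, had levels of -2.50, -3.68, -2.89 and -3.69 at day +30 and of -5.24, -5.45, -5.49 and -5.41 at day +60. At day +60 the spot was above background on 2 of the 4 arrays and the values lay near the floor of the arrays. The fitted change, which rests on those values, was -2.20 ± 0.56 (limma adjusted p = 0.0488). CDC25C, the phosphatase that sets off mitosis, had levels of -2.25, -5.31, -4.48 and -2.35 at day +30 and of -6.11, -6.80, -6.57 and -5.35 at day +60. It was above background on all 4 arrays of day +30 and none of day +60. Only a bound for the mean over the yaks can thus be given, at least 4.11-fold lower (limma adjusted p = 0.0253). In yak 2 the level of day +30 lay below -5.00, the lowest marked above background on its array of day +60. The bound of CDC25C was the highest of the 43. After normexp correction its change was -0.12.

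SH3TC2, known from myelinating Schwann cells, had levels of -3.42, -2.02, 1.33 and -2.33 at day +30 and of -3.87, -4.39, -3.82 and -4.95 at day +60. Yak 3 stood highest at day +30 and yak 1 lay close to its own later value. The change was -2.65 ± 0.59 (limma adjusted p = 0.0193), and -1.67 with an adjusted p of 0.096 without the array of yak 3 at day +30. OR5A1, an odorant receptor, was at -4.40, -4.43, -5.14 and -4.00 at day +30 and at -7.52, -7.32, -7.03 and -7.57 at day +60. Those of day +60 were all below background, and OR5A1 was at least 2.30-fold lower (limma adjusted p = 0.00462). The remaining 5 were likewise above background on no array of day +60. C4H7orf57, an open reading frame, was at least 2.99-fold lower, SHC4, an adaptor protein of receptor signalling, at least 2.09-fold, and NXPH1, a secreted ligand of neurexins, at least 1.97-fold. F11, coagulation factor XI, was at least 1.71-fold lower and TTC39B, a regulator of lipid handling, at least 1.58-fold. These bounds are for the mean over the yaks and hold for the deposited values only. For NXPH1 no fall could be bounded in yaks 1 and 2, and for C4H7orf57, SHC4 and TTC39B none in yak 4. There the level of day +30 lay below the lowest one marked above background on that animal's array of day +60. After normexp correction the sign turned for OR5A1 (0.18), SHC4 (0.13), NXPH1 (0.30), F11 (0.54) and TTC39B (0.77). The median change of all genes was then 0.31, so that OR5A1, SHC4 and NXPH1 still lay below it, and F11 and TTC39B above. That correction adds a constant to every spot before scaling, and the part of the constant in these signs was not tested. SLC29A4 and the 10 largest falls among called genes above background on all 8 arrays were added after their values were seen. SLC29A4 had levels of -5.92, -5.62, -5.65 and -5.52 at day +30 and of -7.18, -7.00, -6.94 and -6.98 at day +60. Its change of -1.35 ± 0.14 had the smallest adjusted p (limma, 2.41e-06), but it was above background on no array of day +60 and its bound is only 1.01-fold. With normexp correction the sign turned, to 1.06.

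Most of the largest falls measured above background on all 8 arrays were widest in yak 3, but not all. GINS2 changed by -2.65, -2.04, -1.47 and -1.90 in yaks 1 to 4, and DBIL5 by -1.89, -1.87, -1.26 and -0.86. IL8, a chemokine that attracts neutrophils, had levels of -4.46, -2.31, -0.57 and -2.35 at day +30 and of -4.54, -4.02, -4.54 and -4.45 at day +60. The days were nearly equal in yak 1 and differed most in yak 3, and the change was -1.97 ± 0.46 (limma adjusted p = 0.0273). RAB20, a small GTPase of membrane traffic, had levels of -2.61, -0.98, 0.52 and -2.26 at day +30 and of -3.05, -2.55, -3.21 and -3.15 at day +60. Yaks 2 and 3 were again the highest at day +30. Its change was -1.66 ± 0.39 (limma adjusted p = 0.0266), with an adjusted p of 0.168 without the array of yak 3 at day +30. The 20 Wnt genes had a median change of -0.35, and 1 was called, against 0.88% of all genes. This was LGR6, a receptor for R-spondins that enhances Wnt signalling. Its levels were -1.55, -0.87, 1.12 and -1.72 at day +30 and -2.01, -2.41, -2.09 and -2.17 at day +60. The days did not overlap, and yak 3 carried the widest gap. LGR6 had a change of -1.41 ± 0.34 (limma adjusted p = 0.037), and of -0.81 with an adjusted p of 0.174 without the array of yak 3 at day +30. CHRNG, the fetal subunit of the muscle acetylcholine receptor, was lower at day +60 in all 4 animals, at -3.68, -3.45, -2.79 and -3.77 at day +30 and -4.82, -4.75, -4.64 and -4.49 at day +60. Its change was -1.25 ± 0.25 (limma adjusted p = 0.0095), and 0.07 after normexp correction, where all genes had a median of 0.31. The others were RSPH1, an axonemal protein of cilia, at -1.65, DBIL5, related to the acyl-CoA binding protein, at -1.47, C29H11orf86 at -1.44 and RIMS4, of synaptic vesicle release, at -1.17, with limma adjusted p between 0.015 and 0.0485.

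**Figure D3:**
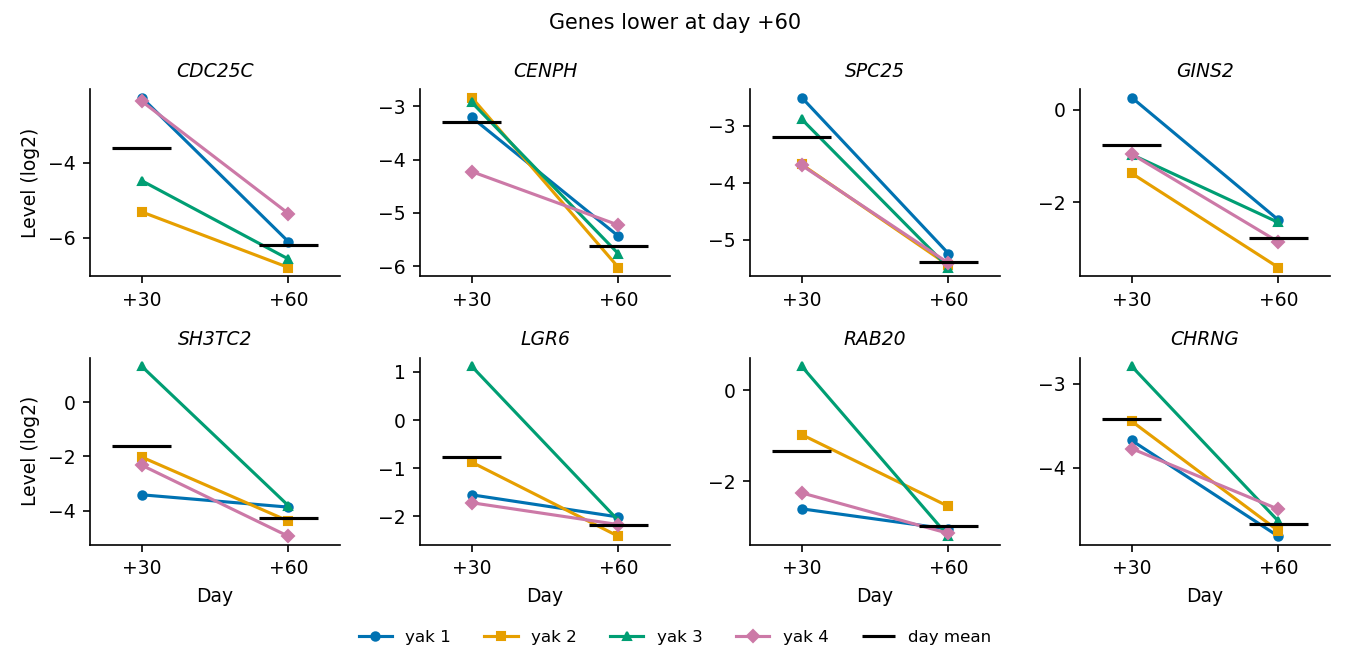
Log2 levels of 8 called genes at day +30 and day +60, with 1 line per yak and a black bar for each day's mean. All 4 lines fall in every panel; the 4 lines are steep for GINS2 and SPC25, and those of SH3TC2, LGR6 and RAB20 are steepest in yak 3.

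The cell division list held 29 tested genes, of which 0 were called, against 0.88% of all genes. CDC25C, CENPH and SPC25, which were called, are not on this list. The median change of the 29 was -1.63, and every one had a change below 0, between -2.89 and -0.19. For 23 the level was lower in 4 of 4 yaks, against 14.1% of all genes. For 20 the days did not overlap, where 5.2% of all genes had no overlap in that direction. The median change of the 29 by animal was -2.06, -1.49, -1.81 and -0.68 in yaks 1 to 4. Only 21 of the 29 were well above background on at least 3 arrays at both days, so that some of these falls rest on dim spots. Leaving out yak 4 called 19 of the 29, while it called 359 of all 20108 genes lower. The median of the 29 was -1.25 after quantile normalization and -0.43 after normexp correction. By the days under which the scanner files are deposited it was -0.07. NDC80, named after its values were seen, is the kinetochore protein that binds microtubules. It had levels of -2.71, -3.47, -3.04 and -4.21 at day +30 and of -4.76, -6.30, -5.27 and -4.82 at day +60. Its adjusted p was the smallest of the list (limma, 0.0753). CCNB1, cyclin B1 of entry into mitosis, had levels of -1.46, -2.54, -2.04 and -3.34 at day +30 and of -3.82, -7.09, -5.78 and -4.24 at day +60. The days did not overlap, and the change was -2.89 ± 0.93 (limma adjusted p = 0.14). CCNB1 was above background on 2 arrays of day +60. In yak 2 its level lay below -5.00, the lowest marked above background on that array. DLGAP5, a spindle protein, was also above background on 2 arrays of day +60, and had a change of -2.88 ± 0.89 (limma adjusted p = 0.124). KIF20A, a mitotic kinesin, was above background on 1 array of day +60, and its change was -1.68 ± 0.56 (limma adjusted p = 0.158).

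Of 16 MCM and other replication genes, GINS2 alone was called, which is 1 in 16 against a background of 0.88%. Their median change was -0.53, and that of yak 1 was -1.39 while yaks 2 to 4 lay between -0.45 and -0.21. GREB1, an estrogen-induced gene, was the 1 called gene of 11 steroid hormone receptors and targets, beside the same background of 0.88%. It was at -6.33, -6.16, -6.29 and -5.85 at day +30 and at -7.77, -7.30, -7.18 and -7.60 at day +60, above background on none of the latter, and no bound over 1 could be set (limma adjusted p = 0.0089), and after normexp correction its change was 1.15.

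Milk protein genes were higher on average at day +60, and the difference came from yaks 2 and 3. None of them passed the test, but 0.0% of all genes were called higher. The 7 tested caseins and whey proteins had a median change of 1.77, with 0.54, 2.63, 4.55 and -0.01 in yaks 1 to 4. CSN1S1 had levels of 7.12, 6.16, 4.48 and 8.32 at day +30 and of 7.99, 8.87, 8.31 and 8.01 at day +60. At day +60 the 4 animals lay close together, while at day +30 yak 3 was the lowest and yak 4 already at its later level. The change of CSN1S1 was 1.77 ± 1.39 (limma adjusted p = 0.519). CSN3, kappa-casein, which stabilizes the casein micelle, had levels of 7.53, 6.28, 5.43 and 8.22 at day +30 and of 8.07, 8.94, 8.37 and 8.28 at day +60. The days overlapped in yak 4, and its change of 1.55 ± 0.80 gave a limma adjusted p of 0.327. LALBA, the whey protein that turns galactosyltransferase into lactose synthase, was at 6.84, 5.42, 2.19 and 7.35 at day +30 and at 7.60, 7.72, 7.84 and 7.21 at day +60. The change was 2.15 ± 1.90 (limma adjusted p = 0.573), the largest error of the 3 genes. PAEP, beta-lactoglobulin, was at 6.86, 5.67, 4.07 and 7.05 and later at 7.36, 8.15, 7.93 and 7.14. It was higher in 4 of 4 yaks, by least in yak 4, and its change was 1.73 ± 1.09 (limma adjusted p = 0.419). Yaks 2 and 3 were also those whose arrays were brighter at day +30, and in yak 3 the fibroblast and neutrophil lists described further on were lower at day +60. The part of these in the change was not tested. Without yak 4, 2 of the 7 were called higher, as were 169 of all 20108 genes. Without the array of yak 3 at day +30 the median of the 7 was 1.03. With array brightness in the model the median was -0.66, by the days of the scanner files it was -0.25, and after quantile normalization it was 0.51. The median change of all genes was 0.31 after normexp correction, and the median of the 7 genes then lay 1.41 above it.

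Several lists of milk fat and lactose genes were also higher mainly in yaks 2 and 3, and others were not. The 12 milk fat globule genes had a median change of 1.22, with 0.24, 1.48, 2.84 and 0.14 in yaks 1 to 4. BTN1A1, butyrophilin, which coats the fat globule, was at 5.14, 4.05, -0.51 and 5.25 at day +30 and at 5.31, 6.07, 6.18 and 5.57 at day +60. It was higher in 4 of 4 yaks, by far the most in yak 3. Its change was 2.30 ± 2.22 (limma adjusted p = 0.609). For 10 of the 12 the level was higher in 4 of 4 yaks and for 4 the days did not overlap, against 10.9% and 2.4% of all genes. LPL, which releases fatty acids from circulating triglycerides, was at 3.94, 2.92, -1.36 and 4.66 at day +30 and at 3.79, 4.51, 5.05 and 4.90 at day +60. Its change was 2.02 ± 1.38 (limma adjusted p = 0.457). FASN, the fatty acid synthase, was at 4.75, 3.37, 1.27 and 5.02 and later at 4.74, 5.29, 5.57 and 5.48. FASN in yak 1 thus stood still, and its change was 1.67 ± 0.70 (limma adjusted p = 0.239). The 14 genes of fatty acid synthesis and desaturation as a list had a median change of 0.10, between -0.69 and 1.93. Of the 14, 0 were called, against 0.88% of all genes. Of the same 14, 5 were higher and 3 lower in 4 of 4 yaks, against 10.9% and 14.1% of all genes. The median by animal was 0.04, 0.30, 0.17 and 0.22. SLC2A1, the glucose transporter of the gland, was at 2.72, 1.25, 1.18 and 2.65 at day +30 and at 2.74, 2.72, 3.05 and 2.94 at day +60. Its change was 0.92 ± 0.52 (limma adjusted p = 0.368), and 0 of 13 glucose and lactose genes were called, against the same 0.88%. The 21 cholesterol synthesis genes had a median of 0.70, with -0.22, 0.96, 2.18 and -0.03 by animal. The 12 genes of prolactin, growth hormone and STAT5 signalling had a median change of 0.06. PRLR, the prolactin receptor, had a change of 0.49 ± 0.44, and STAT5A, its transcription factor, one of 0.71 ± 0.40. ELF5, a transcription factor of secretory cells, was at 1.12 ± 0.63.

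**Figure D4:**
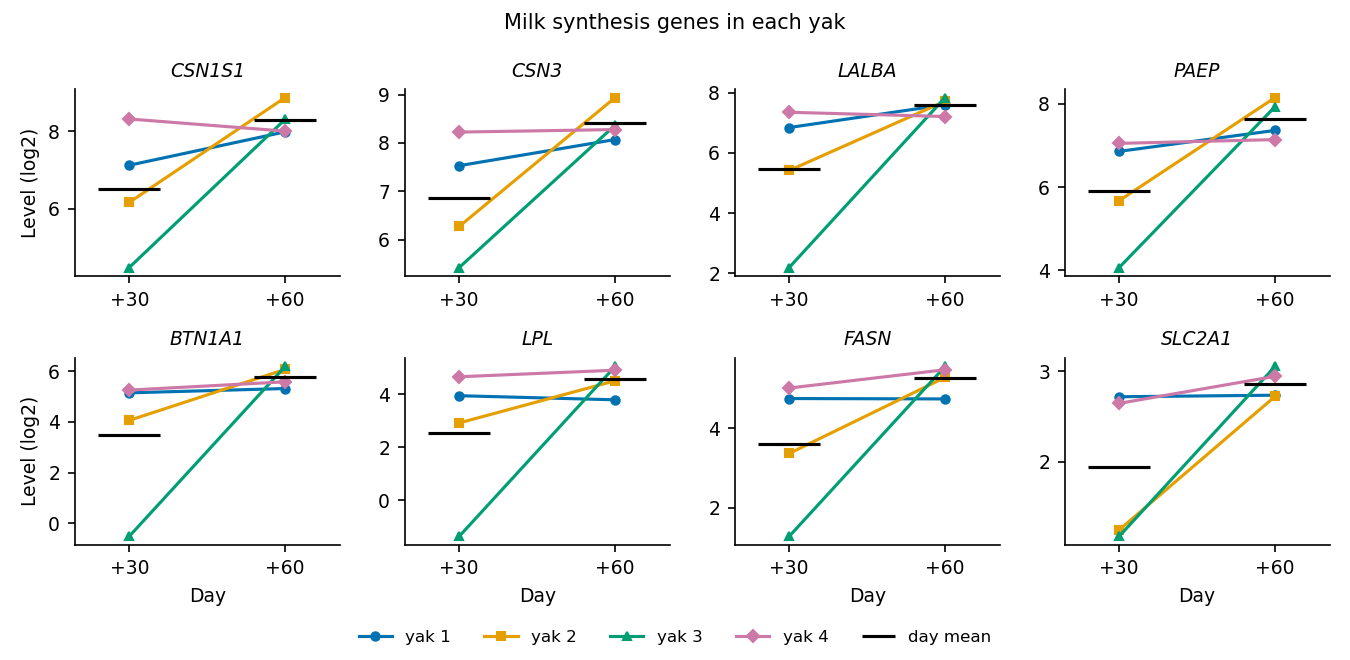
Log2 levels of 8 milk synthesis genes at day +30 and day +60, with 1 line per yak and a black bar for each day's mean. The 4 yaks lie close together at day +60, while yak 3 lies lowest at day +30 and yaks 1 and 4 change little.

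The genes of protein synthesis were also higher mainly in yaks 2 and 3. The 30 cytosolic ribosomal protein genes had a median change of 0.91, all of them at least 0.66. Of the 30, 0 were called, and 0.0% of all genes were called higher. By animal the median of the 30 was 0.37, 1.47, 1.82 and 0.02. RPS2, a protein of the small ribosomal subunit, was at 5.997, 5.09, 4.79 and 6.27 at day +30 and at 6.90, 6.67, 6.92 and 6.46 at day +60. Every value of day +60 lay above every one of day +30, and its change was 1.20 ± 0.38 (limma adjusted p = 0.134). For 8 of the 30 the days did not overlap, against 2.4% of all genes in that direction. Without yak 4, 28 of the 30 were called higher, as were 169 of all 20108 genes. After quantile normalization the median of the 30 was 0.02. By the days of the scanner files it was -0.14. The 20 translation factors had a median of 0.50 and the 25 genes of the secretory pathway one of 0.67, and 0 were called in each. EEF2, elongation factor 2, was at 5.27, 4.39, 3.95 and 5.45 and later at 5.77, 5.98, 5.77 and 5.72, a change of 1.04 ± 0.32 (limma adjusted p = 0.117). These levels belong to the bright end, where all genes had a median change of 0.46.

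Markers of fibroblasts and leukocytes differed most in yak 3, in the direction opposite to the milk genes, and 0 of them were called. The 17 fibroblast and collagen genes had a median change of -0.16 and of 0.66, -0.32, -1.41 and 0.10 by animal. Their mean level was 1.63, 2.67, 2.53 and 1.68 at day +30 and 2.34, 2.28, 1.30 and 1.67 at day +60. The 12 neutrophil genes had a median of -0.90, with -2.34 in yak 3. Their mean level was -2.28, -1.10, -0.10 and -1.25 at day +30 and -1.97, -1.11, -2.27 and -2.73 at day +60, so that yak 3 had the highest value of the 8 arrays at day +30. CXCR2, the receptor of IL8, was at -5.37, -3.16, 0.65 and -2.76 at day +30 and at -4.37, -4.00, -4.84 and -6.83 at day +60. Its change was -2.35 ± 1.04 (limma adjusted p = 0.262). The 13 macrophage genes had a median change of -0.28, with -1.17 in yak 3, the 18 T and NK cell genes one of -0.37, and the 10 B and plasma cell genes one of -0.62. The 12 endothelial genes had a median of 0.08, the 12 adipocyte genes one of 0.22, the 11 skeletal muscle genes one of -0.38 and the 10 nerve genes one of 0.22. Red blood cell genes had a median change of 0.90, with 2.92 in yak 1, where HBB, beta-globin, went from -0.62 to 4.37. Of all 43 gene lists compared, called genes were found in 3, 1 gene each, and no marker list held any. The share over all genes was 0.88%, and lists this small may hold 0 calls at that rate. The part of cell composition in the changes was not tested.

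**Figure D5:**
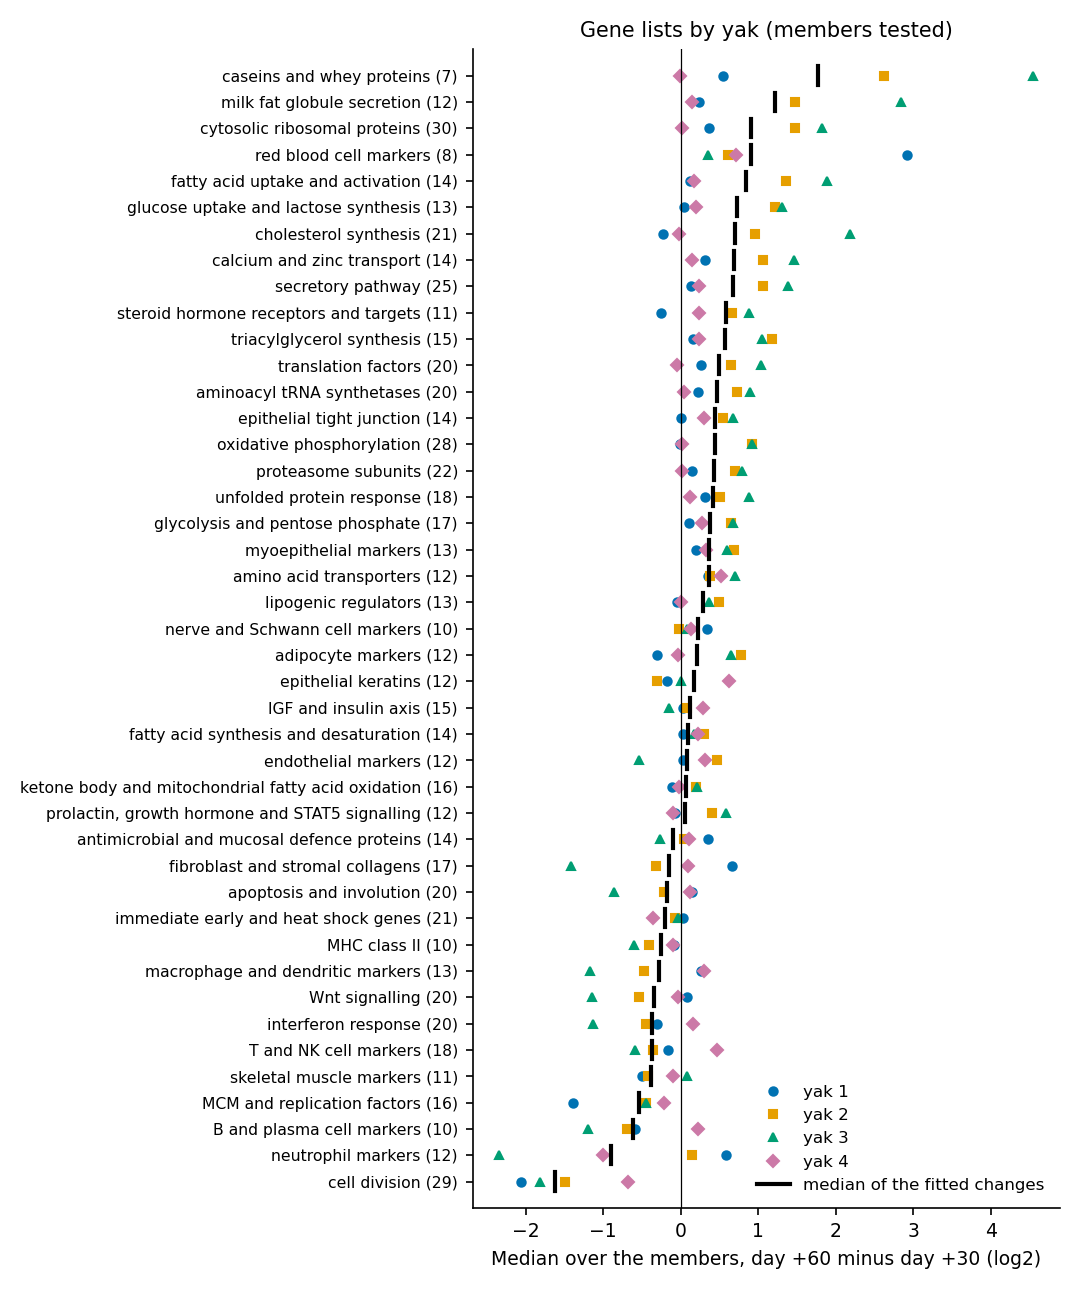
Median log2 change from day +30 to day +60 of each gene list, as 1 symbol per yak and a black bar for the median over the members of the fitted changes. The casein, milk fat globule, ribosomal and secretory pathway lists lie to the right mainly through yaks 2 and 3, while the cell division list lies below 0 in all 4 yaks.

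For the genes that fell, day +60 was mostly the lowest point of the whole course. Its mean was the lowest of the 9 days for 139 of the 177, against 18.5% of all genes, and day +30 was the highest for 68, against 5.83%. Both shares are partly given by the choice of genes that were lower at day +60. Between day +30 and day +15, 3 genes were called, and 179 were called between day +120 and day +60, of which 160 were higher at day +120. These comparisons share arrays with that of day +60 and day +30.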

How the data were processed

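RNA of 36 yak mammary biopsies was hybridised to 1-colour Agilent cattle arrays. The authors scanned them with Feature Extraction 10.7.3.1 and, per the submitters' processing notes and the series design, normalized with GeneSpring 12. The deposited value matrix holds log2 values of 34997 of the 43653 probes, with the 75th percentile of each array at 0 (offsets of at most 0.00409 from the matched scanner values). The deposited scanner files give a processed signal, mean and background intensity, and marks of another unit for spots well above background. Per the series design, the authors' own test had time as a main and yak as a random effect. By value, each column was matched to 1 of 36 scanner files, to read background marks, brightness and slide. For 0 of 36 columns was that file deposited under the same sample.

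One probe stood for each symbol, that with the highest mean over 36 columns, and it had to be well above background on at least 3 of 4 arrays of a day, which left 20108 of 20110 genes or transcripts. Symbols are those of the array files, 13423 in all, of which 11573 also stand in the table of yak genes. Day (fixed) and yak (random block, consensus correlation 0.0531) were fitted over all 36 columns in R 4.3.3 with limma 3.58.1, statmod 1.5.0 and version 1.17.8 of data.table, two-sided, with Benjamini-Hochberg adjustment over all genes at 0.05. The SE thus rests on 1 spread per gene over all days. Yak numbers pair the arrays because they are the same animals: the mean r of deviations was 0.152 within and -0.0509 between yaks, and in yak 3 the r of day +30 with day +60 was -0.011. Position on the slide equals the yak number, so that animal and position cannot be told apart. The p-values measure the spread between all 36 columns, pooled over the days, and not that of day +30 and day +60 alone. A bound compares the mean of day +30 with, per array of day +60, the higher of the probe's own level and the lowest level marked above background.

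The fit was tested on simulated data of 20108 genes. Of 100 genes with a log2 change of 1 it recovered 24, of 100 with a change of 2 it recovered 71, and 3 of 19908 unchanged genes were called. The simulated noise was independent and normal, with 1 SD per gene on all days and no shift of whole animals or arrays. In the data the SD differed by day, as for LGR6 (1.30 at day +30 and 0.17 at day +60), so that these rates need not hold for the data. The members and lists were chosen with earlier results of these data known. Named genes were the 12 largest falls among called genes with a symbol, up to 4 called or 2 largest genes of each of 43 lists, and 18 fixed genes, besides those stated as added later. Some named genes are not reported here. Alternatives changed the animal term, arrays, scaling, background, probes, filter, record of days and test. Python 3.11.15, numpy 2.4.6, pandas 2.3.3, scipy 1.17.1 and matplotlib 3.10.9 were used for the rest.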

Additional observations from a re-analysis of the deposited data

Results flagged for a closer look

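Of 216 groups of 4 arrays, 5 had 1 array far from the other 3 by Dixon's criterion at its 95% critical value, where chance gives about 1 in 20. At day +30, yak 4 was lowest in CLDN4, a tight junction claudin, at -0.89, with the others between 0.83 and 1.14. At day +60, yak 1 was highest in CLDN4 at 0.60, with the others between -0.57 and -0.43. LPO, lactoperoxidase of milk, was lowest in yak 3 at day +30 at -2.43, with the others between 2.94 and 3.91. MUC15, a mucin of the fat globule membrane, was lowest in yak 2 at day +60 at 2.33, with the others between 4.62 and 4.96. SOCS3, an inhibitor of cytokine signalling, was highest in yak 3 at day +30 at -3.31, with the others between -4.97 and -4.75.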

How the results depend on the processing

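The count of 177 stayed within 1.5 times in 7 of 19 alternatives: 144 with no replicate block, 175 with yak as a fixed replicate block, 227 with all probes, 177 with no filter, 175 with a filter on both days alone, 191 with the mean of a gene's probes and 197 in an ordinary linear model. It was 0 in the 8 arrays alone with yak as a fixed replicate block (3126 at an unadjusted p under 0.05) and 7 without the block, 1 after quantile normalization, 0 after normexp correction (3924 unadjusted), 0 by the days of the scanner files (1072 unadjusted), 838 with brightness as covariate, 379 without the 2 arrays of yak 4 low in milk mRNA (day +120 and +180; 12.9% higher) and 96 without the array of yak 3 at day +30. Leaving out 1 yak gave 6 to 528, where without yak 4 32.0% of calls were higher. The causes were not tested, and fits that leave arrays out also rest on fewer arrays. Slide as a block was not run, since each slide holds 1 day by the table's labels. Dim probes limit the falls, as 60 of 177 were above background on 0 arrays of day +60.

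Of 21 named called genes, the replicate block dropped 5 when left out (LGR6 among them, adjusted p = 0.0556) and 3 when fixed, and 21 when the 8 arrays were fitted alone with it. By the days of the scanner files 90 of 108 named genes turned sign, with 16 of the 21 called among them and the other 5 no longer called. That fit sets mainly columns labelled day +120 against columns labelled day +60. After normexp correction, where the median change of all genes was 0.31, 17 turned, 8 of them called. By the days of the scanner files the changes were ALAS2 -1.05, ATF4 -0.39, ATP2C2 -0.55, B4GALT1 -0.32, BDH1 -1.65, BOLA-DOA 0.0586, BOLA-DOB 0.42, BTN1A1 -0.39, C29H11orf86 0.15, C4H7orf57 0.72, CARS -0.11, CD27 0.66, CENPH 0.61, CHRNG 0.29, CIDEC -0.83, CKM 0.34, CLDN4 0.85, CLDN8 -0.27, COX5B -0.20, CPT1A 0.10, CSN1S1 -0.25, CSN1S2 -0.87, CSN2 -0.17, CSN3 -0.17, DBIL5 0.27, DHCR7 -0.18, EEF1D -0.0202, EEF2 -0.0006, EIF4EBP1 -0.0748, ELF3 0.94, ELF5 -0.26, F11 0.69, FABP3 -0.50, FABP4 -0.54, FASN -0.17, GINS2 0.0197, GPAM -0.43, GREB1 0.19, GZMA 0.59, HBB -0.64, IER3 0.27, IFIT3 0.11, IGF1 0.14, INSIG1 -0.66, KDR -0.0668, KIF20A 0.0456, LALBA -0.76, LDHB -0.39, LGR6 0.55, LPIN1 -1.42, LPL -0.35, LPO -0.38, LYZ 0.20, MUC15 -0.64, MX2 0.38, MYH11 -0.0179, MYLPF 0.45, MZB1 0.0642, NDUFA4 -0.39, NEF3 1.69, NGFR 1.04, NXPH1 0.10, OXTR -0.98, PAEP -0.17, PDGFRA 0.028, PNPLA3 -0.83, POSTN 0.26, POU2AF1 0.059, PRLR -0.13, PSMB5 -0.0663, PSMB6 -0.11, RAB20 0.23, RIMS4 0.47, RSPH1 0.57, RSPO1 1.19, SCD -0.21, SHC4 0.34, SLC1A5 -0.36, SLC29A4 0.98, SLC2A1 -0.38, SLC30A2 -0.0914, SLC7A5 -0.26, SRPR -0.19, SSR4 -0.37, STAT5A -0.21, TALDO1 -0.25, TRIB3 -0.67, TTC39B 0.74, WARS -0.32 and XDH -0.32. With brightness as covariate they were ATP2C2 -0.13, BDH1 -0.85, BOLA-DOA 0.0515, BTN1A1 -1.59, CLDN4 0.0356, CLDN8 -0.0301, CSN1S1 -0.66, CSN1S2 -0.47, CSN2 -0.82, EIF4EBP1 -0.0876, ELF5 -0.12, FABP3 -0.73, GPAM -0.18, INSIG1 -0.16, ITGAM 0.42, KDR -0.13, LALBA -1.12, LPIN1 -0.81, LPL -0.49, LPO -1.10, MUC15 -0.41, PAEP -0.11, PDGFRA 0.0431, PNPLA3 -0.64, RSPO1 0.82, SLC2A1 -0.0491, SLC30A2 -0.32 and XDH -0.037. After normexp correction they were BOLA-DOB 0.0504, CD27 0.36, CHRNG 0.0713, CKM 0.58, F11 0.54, GREB1 1.15, GZMA 1.21, ITGAM 0.29, KIF20A 0.45, MX2 0.26, NXPH1 0.30, OR5A1 0.18, RSPO1 1.16, SHC4 0.13, SLC29A4 1.06, SOCS3 0.53 and TTC39B 0.77. After quantile normalization they were CSN3 -0.0049, KRT19 -0.0495 and RSPO1 0.27, and with the mean of all probes KDR -0.0226. Leaving out 1 yak gave RSPO1 changes of -0.90 to 0.48 and ITGAM changes of -2.12 to 0.0054.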

Other observations

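Antimicrobial and mucosal defence genes, which arm milk against microbes, split by gene. The 14 tested had a median change of -0.10 and ran from -2.43 to 2.72, and 0 were called, against 0.88% of all genes. CRISP3, a secreted cysteine-rich protein, was at -0.33, 1.96, -0.59 and 3.70 at day +30 and at 3.35, 3.47, 4.37 and 4.44 at day +60. The 2 lowest values of day +30 were those of yaks 1 and 3, a different pair from the caseins, and the change was 2.72 ± 1.64 (limma adjusted p = 0.393).

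Nerve and Schwann cell genes also split. NEF3, a neurofilament subunit, was at -1.31, 0.76, 1.81 and -3.27 at day +30 and at -2.41, -4.78, -2.82 and -2.99 at day +60, a change of -2.75 ± 1.19 (limma adjusted p = 0.25). NGFR, a neurotrophin receptor, had a change of -1.27 ± 0.62 (limma adjusted p = 0.302), while the median of the 10 genes was 0.22.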
